A study of Homo sapiens with 6 samples.

Results

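The 9 genes described here encode the parts of the MHC class I pathway that build and load the antigen presenting complex. They are the classical heavy chains HLA-B and HLA-C, the non-classical heavy chains HLA-E and HLA-F, the light chain B2M, the peptide transporter subunits TAP1 and TAP2, the loading adaptor TAPBP (tapasin) and the transactivator NLRC5. The members were the rows of the count and FPKM tables that carry these gene symbols, 9 of 28491 genes, and all 9 were present in both tables and passed the filter on low counts. Poly(A) RNA was sequenced from HCT116, an established human colorectal carcinoma line, at 48 h after Lipofectamine transfection with either a control plasmid (NC, 3 libraries) or the RBM47 overexpression plasmid (RBM47-OE, 3 libraries). RBM47 is an RNA binding protein, and every library came from the same line, with no interferon treatment named in the labels. The labels name pcDNA3.1-3xFlag-RBM47 and DMEM, whereas the methods name pIRES-hrGFP-1a and McCoy's 5A medium. Nothing in the labels says that the 3 libraries of a group came from separate cultures, so the p-values measure only the spread between these libraries, which may be technical.

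A class I molecule is a heavy chain bound to B2M and to a short peptide. The proteasome cuts proteins to peptides, TAP1 and TAP2 pump them into the endoplasmic reticulum, and TAPBP holds the empty heavy chain next to the pump until a peptide fits. The finished complex goes to the cell surface, where cytotoxic T cells read it and natural killer cells sense its loss. NLRC5 acts in the nucleus on the promoters of class I genes, and interferon raises the whole set through IRF1 and NLRC5. The comparison asked whether these genes follow the fall of interferon-stimulated genes in RBM47-OE cells.

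Class I genes are reached by interferon through elements close to their starts, and the stretches below show those elements for the members with a promoter window. RefSeq (GRCh38.p14) windows, from 250 bases before to 50 bases after the start, were found for 7 of the 9 members. They were searched on both strands for the interferon-stimulated response element (ISRE, GAAANNGAAA), the shorter IRF core (AANNGAAA, which every ISRE match contains), a kappaB-type motif (GGGANNNNCC), an X2-like motif (TGACG) of the kind found in the module NLRC5 acts through, and CCAAT. Capitals mark the kappaB, IRF core, X2-like and CCAAT matches in the first 4 stretches and the ISRE and IRF core matches in the last 3, and each stretch is read 5' to 3' on the strand of its gene.
HLA-B, chr6:31357221-31357366, strand -: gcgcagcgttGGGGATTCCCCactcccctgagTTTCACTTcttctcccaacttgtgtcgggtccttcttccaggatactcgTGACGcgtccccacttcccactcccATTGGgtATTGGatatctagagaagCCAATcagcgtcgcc
HLA-C, chr6:31272134-31272294, strand -: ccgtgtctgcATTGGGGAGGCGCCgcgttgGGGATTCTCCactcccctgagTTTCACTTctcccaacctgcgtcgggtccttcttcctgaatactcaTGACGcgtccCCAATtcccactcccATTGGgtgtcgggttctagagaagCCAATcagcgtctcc
HLA-F, chr6:29723268-29723391, strand +: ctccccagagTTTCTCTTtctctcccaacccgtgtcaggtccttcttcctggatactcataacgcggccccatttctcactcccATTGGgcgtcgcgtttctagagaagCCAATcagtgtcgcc
B2M, chr15:44711365-44711482, strand +: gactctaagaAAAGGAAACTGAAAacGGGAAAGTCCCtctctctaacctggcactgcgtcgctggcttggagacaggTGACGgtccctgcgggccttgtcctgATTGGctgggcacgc
TAP1, chr6:32853813-32853848, strand -: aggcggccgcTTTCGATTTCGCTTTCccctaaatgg
TAP2, chr6:32838778-32838811, strand -: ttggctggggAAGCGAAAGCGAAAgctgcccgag
TAPBP, chr6:33314079-33314108, strand -: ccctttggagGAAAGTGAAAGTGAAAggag

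An ISRE match was present in 5 of the 7 members, namely HLA-F, B2M, TAP1, TAP2 and TAPBP, and in 3.57% of the 35116 promoter windows of all genes. The IRF core was present in all 7 members and in 22.8% of all windows. In HLA-B and HLA-C the core began at base -155 and base -151 from the start, and neither window matched the full GAAANNGAAA pattern. A response element that departs from this pattern would be missed by the search. The X2-like motif, present in 24.6% of all windows, was found in HLA-B, HLA-C, B2M and TAP2. The kappaB-type motif was found in HLA-B, HLA-C, B2M, TAP1 and TAPBP and in 25.6% of all windows, and CCAAT in HLA-B, HLA-C, HLA-F, B2M and TAP1 and in 34.6% of all windows. The windows of HLA-B and HLA-C were 89.0% identical over their alignment, that of HLA-F was 80.4% identical to HLA-B and 78.6% to HLA-C. The 7 members had 8 windows, and the second window of TAP1 held no match of any motif. A member was counted if any of its windows matched, whereas the shares of all genes are per window. A match describes the letters only and is not a measured site.

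The libraries held between 26792409 and 35477983 counts on genes. RBM47 rose from 2.06 ± 0.234 FPKM (SD, n = 3) in NC to 129.6 ± 2.25 FPKM (SD, n = 3) in RBM47-OE, and the plasmid's own transcript adds to that value. Of 10 epithelial markers 9 were above 1 CPM (counts-per-million, TMM-scaled), VIL1 being the exception, and of 10 leukocyte markers none was, with PTPRC and CD3D absent or at 0 and a summed level of 1.48 to 1.85 CPM in NC and 0.529 to 1.03 in RBM47-OE. COL1A1 was the one fibroblast marker of 7 above that level and VWF the one endothelial marker of 5. Gene levels in the RBM47-OE libraries followed the GC content of the exons. Spearman's rho across 16229 genes between GC content and the difference from NC was -0.41, -0.59 and -0.67 for the RBM47-OE libraries 1, 2 and 3, and -0.16, 0.13 and 0.04 in the NC libraries, each against the other NC libraries. The members have GC-rich exons, with a median of 54.2% against 49.0% for all genes tested. A second fit therefore took out each library's trend with GC content (the GC offset), whatever its origin, and its values stand beside those without it.

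The heavy chain genes HLA-C, HLA-B and HLA-E fell slightly in RBM47-OE cells. HLA-C fell by 20.6%, HLA-B by 16.5% and HLA-E by 13.5%, while HLA-F, TAP1, TAP2, TAPBP, NLRC5 and B2M did not pass the test. In edgeR's quasi-likelihood test with Benjamini-Hochberg adjustment over 16260 genes, 3 of 9 members (33.3%) were lower at an adjusted p under 0.05 and 0 were higher. Over all genes tested, 16.9% were lower and 19.1% were higher. The log2 fold change was below 0 for 8 of the 9 members and their median was -0.20, where the median of all genes was 0.00 and the quartiles of all genes were -0.22 and 0.26. With the GC offset, 1 of 9 members (TAP2) was lower and 0 were higher, against 8.47% and 6% of 16229 genes, and the median was -0.07. None of the 9 passed the study's thresholds of an unadjusted p under 0.01 and a fold change over 1.5. These were applied here to the edgeR test, whereas the study used DESeq2, and 0.873% of all genes were lower under them. In bulk RNA, fewer cells expressing a gene and less RNA per cell cannot be told apart.

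**Figure D1:**
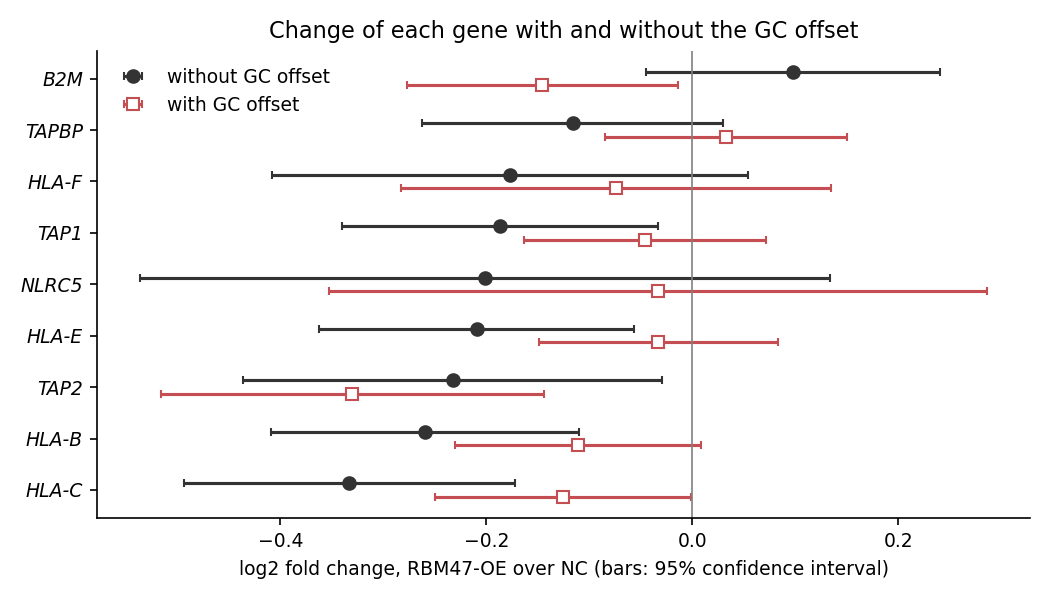
Log2 fold change of RBM47-OE over NC (x axis) for each of the 9 genes (y axis), as black circles without and open red squares with the GC offset, with 95% confidence intervals as bars. Without the offset 8 of 9 values lie below 0. With it HLA-B, HLA-C, HLA-E and TAP1 move toward 0, B2M moves from 0.10 to -0.15, and TAP2 moves away from 0, to -0.33.

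HLA-C, a classical heavy chain that presents peptides and is a main ligand of killer cell receptors, was the most abundant member. The gene has 8 exons and spans chromosome 6 (GRCh38) from 31268749 to 31272130, minus strand. Its level in FPKM (fragments scaled for transcript length and for the fragments mapped in the library) was 177.04, 193.41 and 189.07 in NC, against 171.26, 147.58 and 147.17 in RBM47-OE, given here and later in the order of replicates 1, 2 and 3. Every RBM47-OE library was below every NC library, and RBM47-OE replicate 1 was the nearest to NC. The mean went from 186.5 ± 8.48 to 155.3 ± 13.8 FPKM (SD, n = 3 each). The log2 fold change of the counts was -0.33 (SE 0.078, edgeR adjusted p = 0.0018) and, with the GC offset, -0.13 (SE 0.060, adjusted p = 0.18).

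HLA-B, the other classical heavy chain among the members, lies on the same strand from 31353872 to 31367067 and shares 1421 exonic bases with the pseudogene DHFRP2. NC libraries had 62.38, 64.35 and 67.61 FPKM of HLA-B, and RBM47-OE libraries had 60.30, 53.92 and 56.17. The groups did not overlap, and again RBM47-OE replicate 1 was the highest of its group. HLA-B had a log2 fold change of -0.26 (SE 0.073, edgeR adjusted p = 0.0070) and with the GC offset -0.11 (SE 0.058, adjusted p = 0.22). Without NC replicate 3, the highest of the NC libraries, the HLA-B value was -0.23 with an adjusted p of 0.062.

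HLA-E, which presents leader peptides of other class I chains to the NKG2A receptor of natural killer cells, lies on the plus strand from 30489509 to 30494194. NC libraries had 68.98, 71.98 and 69.73 FPKM of HLA-E, against 69.06, 64.21 and 58.05 in RBM47-OE. On the FPKM scale RBM47-OE replicate 1 lay inside the NC range, whereas on the CPM scale all RBM47-OE libraries were below all NC libraries. HLA-E was at -0.21 (log2) without the GC offset (SE 0.075, edgeR adjusted p = 0.030) and at -0.03 with it (SE 0.056, adjusted p = 0.75). The call on HLA-E was the least stable of the 3, and it was lost without any single library except RBM47-OE replicate 1, with adjusted p-values between 0.077 and 0.145.

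HLA-F, a non-classical chain of restricted expression, was far lower. The gene spans 29722775 to 29738528 on the plus strand, with an FPKM of 2.38, 2.78 and 2.84 in NC against 2.56, 2.66 and 2.22 in RBM47-OE. The groups overlapped, and the log2 fold change of -0.18 (SE 0.11, edgeR adjusted p = 0.23) did not pass the test, nor did the -0.07 with the GC offset. HLA-F shares 535 exonic bases with the antisense gene HLA-F-AS1. The methods do not state whether strand was used in counting, so reads of the pair cannot be told apart.

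The heavy chain genes are paralogs, and reads that fit more than 1 of them could be lost or split in counting. Their counts were also summed into 1 feature, which fell by 0.28 on the log2 scale (SE 0.077, edgeR adjusted p = 0.0055). The authors counted only reads with a unique place, so this sum cannot bring back reads lost before counting. With the GC offset, in a fit added after seeing the data, the sum was at -0.10 (SE 0.061, adjusted p = 0.31), and none of its 4 chains passed. HLA-C supplied between 50.6% and 53.8% of the heavy chain counts in every library, HLA-B 21.5% to 23.6%, HLA-E 22.8% to 25.6% and HLA-F 1.22% to 1.57%. The make-up of the heavy chain pool differed little between libraries, although the count ratio of HLA-E to HLA-C was higher in all RBM47-OE libraries (0.460 to 0.507) than in all NC libraries (0.430 to 0.454). With 3 against 3 libraries, the exact two-sided permutation test cannot give a p below 0.1, which was its value here. With each library's GC trend taken out of the counts, the groups overlapped in this ratio. The 6 class I pseudogenes in the table held 0.766% to 0.951% as many counts as the 4 heavy chains.

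**Figure D2:**
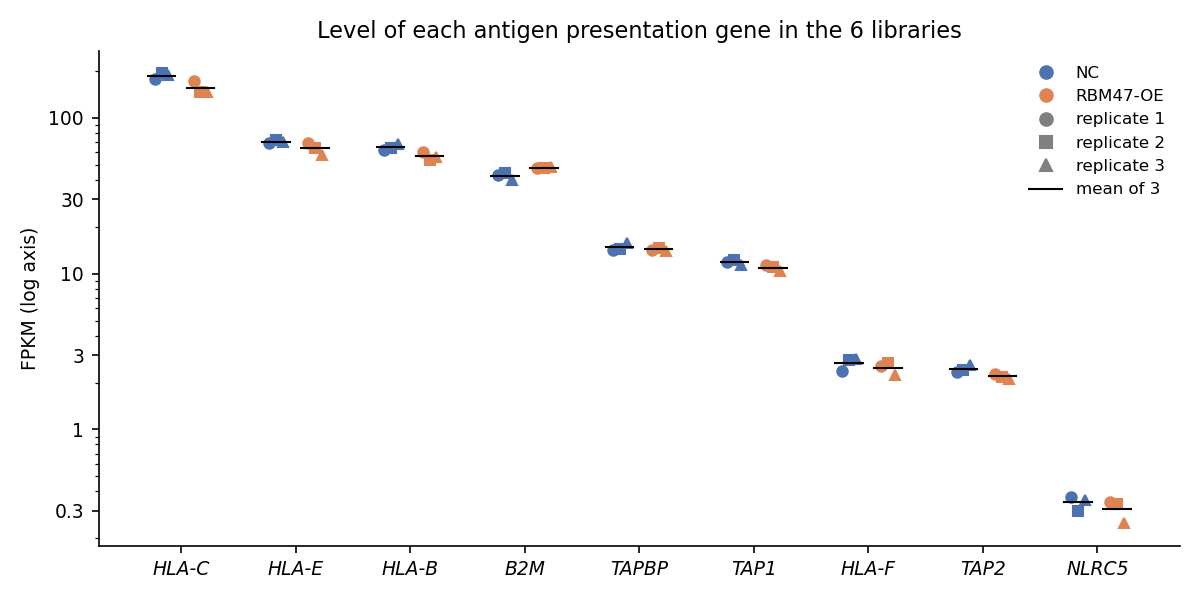
FPKM (y axis, log scale) of each gene (x axis) in the 3 NC libraries (blue) and 3 RBM47-OE libraries (orange), with the replicate number as the shape of the point and the mean of 3 as a bar. The genes run from HLA-C, at 147.17 to 193.41 FPKM, down to NLRC5, at 0.25 to 0.37 FPKM, and the distance between genes is far larger than that between groups.

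B2M, the light chain that class I heavy chains generally need to reach the surface, did not fall with the heavy chains before the GC offset. It lies on chromosome 15, plus strand, from 44711358 to 44718851, outside the MHC region. The level of B2M was 42.85, 44.08 and 40.16 FPKM in NC against 47.42, 47.34 and 48.13 in RBM47-OE, and every RBM47-OE library was above every NC library. Its log2 fold change was 0.10 (SE 0.070, edgeR adjusted p = 0.29). This direction depended on the processing. Scaled by library totals, B2M was higher by 0.16 (adjusted p = 0.048), and in limma on log2(FPKM + 1) by 0.17 (adjusted p = 0.046). With the GC offset it was -0.15 (SE 0.064, adjusted p = 0.13). B2M has the lowest exonic GC content of the members, 41.4%, where the trend of the libraries alone gave a difference of 0.25.

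The count ratio of a heavy chain to B2M within a library does not depend on the library's total, but the GC trend does not cancel in it, since B2M has a lower GC content than each heavy chain. HLA-C counts per B2M count were 1.90, 2.02 and 2.16 in NC, against 1.66, 1.43 and 1.41 in RBM47-OE. The 4 heavy chains summed had 3.61, 3.75 and 4.08 counts per B2M count in NC, and 3.18, 2.83 and 2.73 in RBM47-OE. All RBM47-OE libraries were lower for both ratios, and the mean summed ratio went from 3.81 ± 0.242 to 2.92 ± 0.238 (SD, n = 3 each), a difference of -0.39 on the log2 scale (exact two-sided permutation p = 0.1, the smallest that 3 against 3 can give). The ratio to B2M was also lower in all RBM47-OE libraries for HLA-B, HLA-E, TAP1, TAP2 and TAPBP, and overlapped between groups for HLA-F and NLRC5. These differences were not kept once each gene's counts were divided by the GC trend of their library, an alternative chosen after seeing the data. The summed ratio was then 3.18, 3.16 and 3.49 in NC and 3.24, 3.44 and 3.47 in RBM47-OE. The groups overlapped, and the difference turned to 0.05 on the log2 scale (exact two-sided permutation p = 0.4). Of the members' ratios to B2M, that of TAP2 alone was then still lower in all RBM47-OE libraries (-0.18 on the log2 scale, exact p = 0.1), and the other 7 overlapped.

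**Figure D3:**
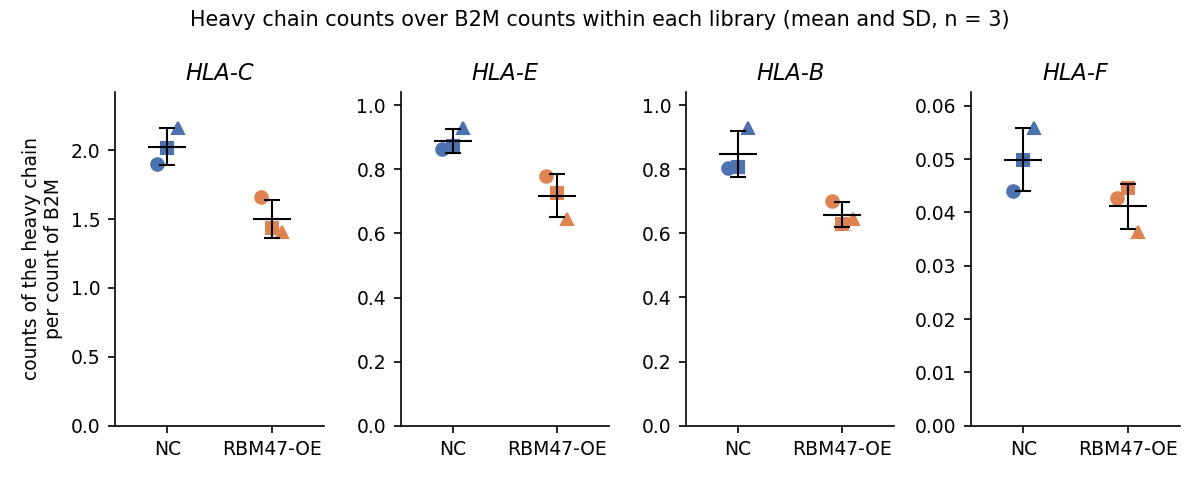
Counts of each heavy chain per count of B2M (y axis, from 0, own scale for each gene) in the NC (blue) and RBM47-OE (orange) libraries, with the mean and SD of 3 in black. For HLA-C, HLA-E and HLA-B every RBM47-OE point lies below every NC point, and for HLA-F the groups overlap. The counts are as deposited, with the GC trend left in.

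TAP1 and TAP2, which together form the peptide pump, lie near each other on the minus strand of chromosome 6, with PSMB8 between them. TAP1 runs from 32845209 to 32853816 and TAP2 from 32821833 to 32838739. TAP1 had 11.80, 12.25 and 11.42 FPKM in NC and 11.40, 10.97 and 10.36 FPKM in RBM47-OE. Its RBM47-OE libraries were all lower, but by so little that replicate 1 nearly met the lowest NC library. The log2 fold change of TAP1 was -0.19 (SE 0.075, edgeR adjusted p = 0.052), just outside the threshold. With the GC offset it was -0.05 (SE 0.057, adjusted p = 0.66). TAP1 shares 672 exonic bases with PSMB8-AS1 on the opposite strand.

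TAP2 had 2.32, 2.42 and 2.59 FPKM in NC and 2.27, 2.18 and 2.11 FPKM in RBM47-OE, again with no overlap. The log2 fold change of TAP2 was -0.23 (SE 0.099, edgeR adjusted p = 0.068). TAP2 was the one member that passed the test with the GC offset, at -0.33 (SE 0.090, adjusted p = 0.016), and its exonic GC content of 45.2% is below the median of all genes. With GC content taken from the canonical transcript alone, an alternative chosen after seeing the data, the TAP2 value was -0.21 (adjusted p = 0.11). The count ratio of TAP1 to TAP2 was 3.53 ± 0.274 in NC and 3.63 ± 0.0520 in RBM47-OE (SD, n = 3 each), with overlapping groups. With the GC trend taken out of the counts the ratio was 3.25 ± 0.280 in NC and 3.95 ± 0.209 in RBM47-OE, higher in all RBM47-OE libraries (exact two-sided permutation p = 0.1). TAP2 shares 2023 exonic bases with a readthrough gene on its own strand.

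TAPBP, on the minus strand from 33299694 to 33314284, was measured at 14.08, 14.49 and 15.70 FPKM in NC against 14.23, 14.65 and 14.03 in RBM47-OE. The groups overlapped in FPKM. TAPBP shares 1397 exonic bases with a noncoding gene on the opposite strand. The log2 fold change was -0.12 (SE 0.071, edgeR adjusted p = 0.21) and with the GC offset 0.03 (SE 0.057, adjusted p = 0.76), so no direction held for TAPBP. NLRC5, on the plus strand of chromosome 16 from 56989485 to 57083531, was the least abundant member. It had 141, 148 and 143 counts in NC and 158, 140 and 101 counts in RBM47-OE, or 0.25 to 0.37 FPKM over the 6 libraries. The NLRC5 groups overlapped, and the log2 fold change of -0.20 (95% confidence interval -0.54 to 0.13, edgeR adjusted p = 0.36) did not pass the test, so a change within that interval could not be told from none among these libraries.

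In mean FPKM, a level per length, the NC order was HLA-C, HLA-E, HLA-B, B2M, TAPBP, TAP1, HLA-F, TAP2 and NLRC5, and the RBM47-OE order was the same. Neighbours in this order were apart in their ranges except HLA-F and TAP2 in both groups and HLA-E and HLA-B in RBM47-OE. B2M stood below HLA-B in FPKM although it had more counts in every library. The FPKM of B2M corresponds to a gene model of 6177 bases, against 3121 exonic bases in GENCODE 44, so its place in the order rests on the gene model. RBM47-OE replicate 1 was the highest of its group for all 8 members with a log2 fold change below 0, on the CPM scale. The members' median difference from the NC mean was -0.09, -0.21 and -0.28 for RBM47-OE libraries 1, 2 and 3, in the same order as the strength of their GC trend, and -0.01, -0.06 and -0.12 with the GC offset. Without RBM47-OE replicate 1, 5 members were lower (HLA-B, HLA-C, HLA-E, TAP1 and TAP2), and without NC replicate 3, 1 was (HLA-C). The share of all genes called was not counted with a library left out, so these counts have no background beside them.

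On the CPM scale, all RBM47-OE libraries were below all NC libraries for 6 of the 9 members (HLA-B, HLA-C, HLA-E, TAP1, TAP2 and TAPBP) and above them for 1 (B2M). Of all genes tested, 23.4% were below in this way and 23.2% above. In FPKM the counts were 4 below (HLA-B, HLA-C, TAP1 and TAP2) and 1 above (B2M), and the share of all genes was not counted on that scale. Of the 9 members, 7 lie on chromosome 6 between 29722775 and 33314284, from HLA-F to TAPBP. Of the 137 other genes tested in this interval, 39 (28.5%) were lower and 1 was higher, against 16.9% and 19.1% of all genes. The median change of the 137 was -0.19 (log2), close to the members' -0.20. With the GC offset 12 of the 137 (8.76%) were lower and 1 higher, against 8.47% and 6% of all genes. The median of the 137 was then -0.06.

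**Figure D4:**
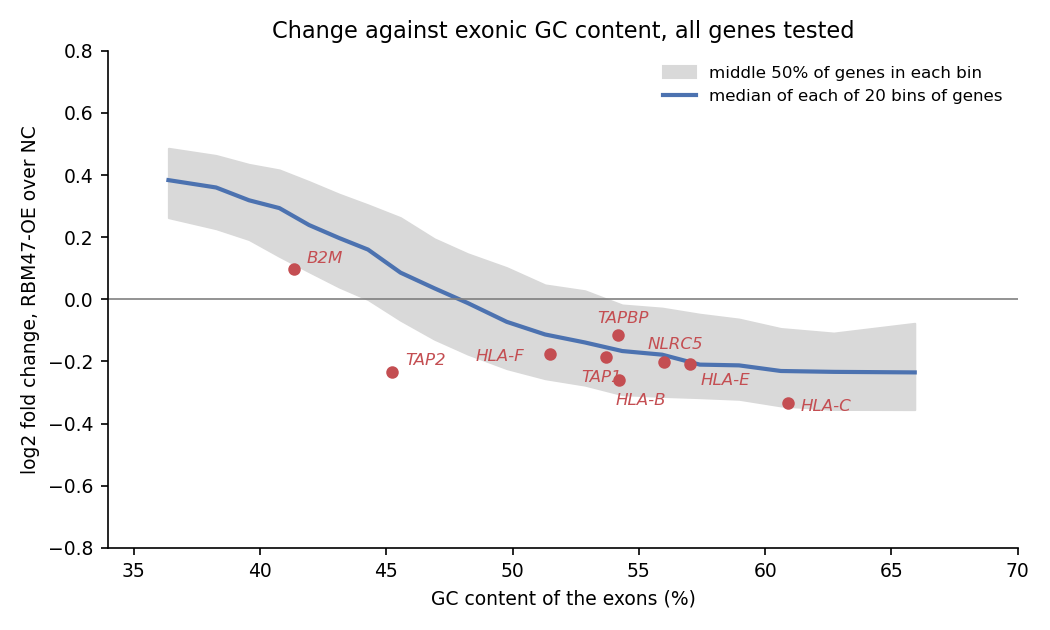
Log2 fold change of RBM47-OE over NC (y axis) against the GC content of the exons in percent (x axis). The blue line is the median of 20 bins of genes ordered by GC content, the grey band their quartiles, and the red points are the 9 members. The line goes from 0.38 in the lowest bin to -0.24 in the highest. Of the members, TAP2 lies below the band and the other 8 lie in it or at its lower edge.

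Interferon-stimulated genes, the antiviral genes that interferon switches on, were taken as a list of 78 genes without the members. Of the 61 tested, 22 (36.1%) were lower and 6 (9.84%) were higher, against 16.9% and 19.1% of all genes, and the median change was -0.17 (log2). The largest falls among those that passed the test were LGALS9, a galectin (-1.80, SE 0.50, edgeR adjusted p = 0.0066, at 3 to 41 counts), IFI6, a mitochondrial survival protein (-1.04, SE 0.11), IFI27 (-0.99, SE 0.27), OAS1, a sensor of double-stranded RNA (-0.75, SE 0.29) and its relative OASL (-0.69, SE 0.11). IFI6 had 745, 1418 and 1236 counts in NC and 621, 593 and 502 in RBM47-OE. The call on LGALS9 was lost without NC replicate 3 (-1.16, adjusted p = 0.13), and that on OAS1 without any single library except NC replicate 1 (adjusted p = 0.055 to 0.27). The largest rises among those that passed the test were PARP14 (0.42), TDRD7 (0.39) and PNPT1 (0.38), of which none passed with the GC offset. With that offset, 17 of the 61 were lower and 1 higher, against 8.47% and 6% of all genes, and the list's median was -0.17, whereas the members' median went from -0.20 to -0.07. Without RBM47-OE replicate 1, and with no offset, 12 were higher, a fit in which the share of all genes was not counted. The list's GC content had a median of 47.6%, below the members' 54.2%.

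The members and the interferon-stimulated genes also varied between libraries. The list's median difference from the NC mean was -0.18, -0.22 and -0.24 for RBM47-OE libraries 1, 2 and 3, and -0.17, -0.15 and -0.15 with the GC offset. For the members the 3 values differed by more, from -0.09 to -0.28, and with the offset from -0.01 to -0.12. These are values set side by side, and the difference between the lists was not tested.

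**Figure D5:**
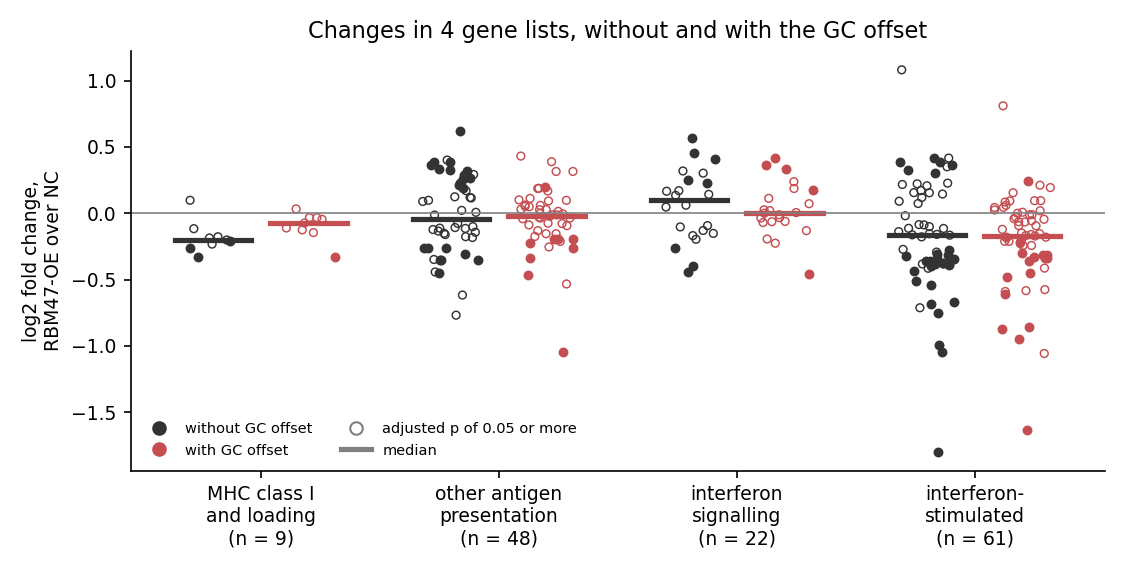
Log2 fold change of RBM47-OE over NC (y axis) for the tested genes of 4 lists (x axis), black without and red with the GC offset. Filled points had an adjusted p under 0.05, and bars are medians. The median of the 9 members lies at -0.20 without and -0.07 with the offset, and that of the 61 interferon-stimulated genes at -0.17 in both.

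Of 52 other genes of antigen presentation, 48 were tested, with 8 (16.7%) lower and 13 (27.1%) higher, where 16.9% and 19.1% of all genes were, and a median change of -0.04 (log2). The genes named below only as part of a count were chosen after their values were seen. The immunoproteasome, which shapes peptides for class I, and the proteasome activators had 3 of 6 genes lower (PSMB9, PSME1 and PSME3) and 0 higher. PSMB9, a catalytic subunit of the immunoproteasome, had 233, 350 and 254 counts in NC and 232, 221 and 188 in RBM47-OE. On the CPM scale all its RBM47-OE libraries were lower, and it fell by 0.45 on the log2 scale (SE 0.12, edgeR adjusted p = 0.0065) and by 0.47 with the GC offset (adjusted p = 0.0085). Without NC replicate 2 its adjusted p was 0.061. PSMB9 starts next to TAP1, on the opposite strand, and shares exons with PSMB8 and PSMB8-AS1.

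PSME1, a subunit of the PA28 activator, fell by 0.36 (SE 0.076, edgeR adjusted p = 0.00085), and PSME3, its nuclear relative, fell by 0.35 (SE 0.074, adjusted p = 0.00070). Both also passed with the GC offset, at -0.20 and -0.26. PSME2, of the same group of 6 genes and named after its values were seen, did not pass. It was at -0.11 (SE 0.072, edgeR adjusted p = 0.23) with overlapping groups on the CPM scale, and at -0.01 with the GC offset (adjusted p = 0.93). The other catalytic subunits of the immunoproteasome were at few counts. PSMB8 had 10 to 21 counts and a log2 fold change of -0.62 (SE 0.39, adjusted p = 0.23), and PSMB10 had 20 to 35 counts and 0.09 (SE 0.33, adjusted p = 0.86).

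The groups that follow hold few genes each, and of all genes tested 16.9% were lower and 19.1% were higher. Of the genes called in them, MICA, MICB and NFYA alone also passed with the GC offset. Among 7 peptide trimming enzymes THOP1 was lower and LNPEP, TPP2 and NPEPPS were higher. Of 5 tested chaperones of folding and loading, CALR (calreticulin) was lower and CANX (calnexin) and UGGT1 were higher. Among 11 tested class I-like molecules, the stress ligands MICA and MICB were lower, and HFE, ULBP1 and ULBP3 were higher. ULBP1, another ligand of the NKG2D receptor, had the largest rise of the pathway, 0.62 (SE 0.17, edgeR adjusted p = 0.0066), with 6.70, 12.5 and 7.41 CPM in RBM47-OE against 5.32 to 6.05 in NC, so replicate 2 stood above the others. Without it the value for ULBP1 was 0.29 (adjusted p = 0.15). Of 13 factors of class I promoters, RELA was lower and CREB1, ATF1, NFYA and NFYB were higher, with CREB1 at 0.39 (SE 0.091, adjusted p = 0.0018). IRF1, the interferon-induced activator of class I promoters, was at -0.13 (SE 0.10, adjusted p = 0.34). Of 6 genes of class I surface turnover, B3GNT5 was higher and 0 were lower.

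Without NC replicate 2 the pathway list had 5 lower and 4 higher, and without NC replicate 3 or RBM47-OE replicate 2 or 3 it had 6 higher. The share of all genes was not counted in these fits. With the GC offset the list had 8 lower and 1 higher, against 8.47% and 6% of all genes. The lower genes were then PSMB9, PSME1, PSME3, ERAP2, BLMH, MICA, MICB and NFKB1, and the higher one was NFYA. PSMB9, PSME1, PSME3, MICA and MICB were lower in both fits. CREB1 was at 0.03 with the offset (adjusted p = 0.84) and ULBP1 at 0.43 (adjusted p = 0.088). Class II genes, which present to helper T cells, were summed to 30.2 to 33.8 CPM in NC and 29.3 to 33.7 in RBM47-OE. Of 10 class II genes tested, 1 (10%) was lower and 0 were higher, against 16.9% and 19.1% of all genes. The lower one was CD74, at -1.15 (log2, SE 0.39, edgeR adjusted p = 0.024), and at -0.97 with the GC offset (adjusted p = 0.11). CD74 had few counts, 33, 30 and 36 in NC and 6, 24 and 17 in RBM47-OE.

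Interferon signalling genes, upstream of the members, gave 3 lower (13.6%) and 5 higher (22.7%) of 22 tested, where 16.9% and 19.1% of all genes were, and their median change was 0.10 (log2). IFNGR1, the ligand-binding chain of the interferon gamma receptor, rose by 0.57 (SE 0.099, edgeR adjusted p = 0.00016) and JAK1, a kinase on the receptors, rose by 0.41 (SE 0.073, adjusted p = 0.00020). Both also passed with the GC offset, at 0.36 and 0.42. IFNGR1 had 530, 661 and 589 counts in NC and 824, 1046 and 905 counts in RBM47-OE. RIGI, a sensor of viral RNA, was at 0.45 (SE 0.12, adjusted p = 0.0047) and at 0.19 with the offset (adjusted p = 0.25). STAT2 was at -0.09 (SE 0.088, adjusted p = 0.44). IRF7 fell by 0.45 (SE 0.11, adjusted p = 0.0024) but was at -0.23 with the offset (adjusted p = 0.14). USP18, which dampens the type I receptor, fell by 0.39 (SE 0.13, adjusted p = 0.017) and by 0.46 with the offset (adjusted p = 0.013), and its call was lost without NC replicate 1 (adjusted p = 0.061) or 3 (adjusted p = 0.077). IRF9, a factor of type I interferon signalling, had 5 to 13 counts and was not tested. In the GC offset fit 1 signalling gene was lower and 4 were higher, against 8.47% and 6% of all genes.

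The genes whose levels over the 6 libraries were most like those of the members were found by Pearson's r with the mean of the members' standardised log2 CPM. The 10331 genes compared include members, which were then left out of the ranking. The most alike genes were RP11-314N13.10 (r = 0.998), VAT1 (0.998), RPL28 (0.997), IER5 (0.997) and ABCC1 (0.997). These values describe 6 libraries that share the GC trend, and 1623 genes had an r above 0.9. The exonic GC content of the 5 genes ran from 49.8% to 57.4%, above the median of all genes.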

How the data were processed

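HCT116 libraries (3 NC, 3 RBM47-OE) were used as deposited. The authors trimmed reads with FASTX-Toolkit, used HISAT2 to map them to GRCh38 and counted the reads with a unique place. The deposited counts are raw, and the deposited FPKM values are the authors' own scaling of them for length and library size. The counting tool, annotation release and strand setting are not given in the sources used here, and labels and methods name different library kits. Members and gene lists were chosen with earlier results of these data known.

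Counts were tested with edgeR 4.0.16 in R 4.3.3 (filterByExpr with a minimum count of 10, TMM, quasi-likelihood test, condition only), with Benjamini-Hochberg adjustment over all 16260 genes tested. Exonic GC content and coordinates came from GENCODE 44 on GRCh38. The GC offset was a loess curve per library with a span of 0.3. The same numbers in both groups were not taken as pairs in this test. Alternatives used limma 3.58.1 and DESeq2 1.42.0, and the fits were tested on simulated data. Named were all members, RBM47, PSMB8, PSMB9, PSMB10, IRF1, STAT2 and IRF9, the 5 largest changes each way in the pathway and signalling lists, 5 falls and 3 rises of interferon-stimulated genes, and the 5 most alike genes with a mean log2 CPM of at least 3. A gene of this rule is not reported here. The depth was between 26792409 and 35477983 counts on genes.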

Additional observations from a re-analysis of the deposited data

How the results depend on the processing

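The 9 members gave 171 values under 19 alternatives, and 134 of these kept their direction and their side of the threshold. The count of lower members was 1 with the GC offset, 1 with the GC offset and replicate block, 1 with the canonical GC offset (chosen after seeing the data), 0 at the study's thresholds, and 1 to 5 with each library left out. The count of higher members was 1 (B2M) with library totals and in both limma fits. The share of all genes called was not counted with a library left out, library totals, limma, the length offset or a replicate block. Counts under these alternatives therefore stand without a background. The members' median was -0.14 with library totals, -0.074 with the GC offset, -0.071 with the GC offset and replicate block, -0.064 with the canonical GC offset, -0.11 in limma on log2(FPKM + 1) and -0.12 on log2(FPKM + 0.1), and -0.27 to -0.15 with each library left out. The pathway list had 13 lower with a length offset, 0 at the study's thresholds and 5 to 11 with each library left out. It had 1 higher with the GC offset, 1 with the block added, 0 with the canonical GC offset, 7 with the length offset, 1 at the study's thresholds and 4 to 14 with each library left out. The interferon-stimulated list had 5 lower and 0 higher at the study's thresholds. Its higher count was 1 with the GC offset, 1 with the block added, 2 with the canonical GC offset and 4 to 12 with each library left out, and its median was -0.049 in limma on log2(FPKM + 1). Signs turned for HLA-F (0.0068 with the canonical GC offset), B2M (-0.15 with the GC offset, -0.15 with the block added, -0.21 with an adjusted p of 0.040 with the canonical GC offset), TAPBP (0.033, 0.034 and 0.062 in the same fits), PSMB10 (-0.11 to 0.24 with each library left out) and STAT2 (8.1e-05 with the GC offset). The cause was not tested. Deviations of same-numbered libraries correlated at -0.060, -0.015 and -0.016, so no pairing by number showed, though these values cannot exclude one. With the replicate block 2 members were lower (HLA-B and HLA-C), and HLA-E had an adjusted p of 0.052. PSMB8, PSMB10 and IRF9 had few counts in every library. The summed heavy chains' ratio to B2M turned to 0.047 with the GC trend taken out.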
